A study of Mus musculus with 3 samples.

Results

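SR proteins and heterogeneous nuclear ribonucleoproteins (hnRNPs) are the main RNA-binding regulators of splicing, and their messenger RNAs were measured here in cultured mesenchymal stem cells (MSCs, adherent stromal cells) of C57BL/6 mice. The genes were every row of the deposited table with the biotype protein_coding and a symbol beginning with Srsf and a digit or with Hnrnp. The rule found 31 of the 43346 genes in the table, 11 SR genes and 20 hnRNP genes, and used no measured value. The cells came from fat pads of adult animals and were grown in advanced MEM with serum before RNA extraction. All 3 libraries belong to this single group, with no treatment or comparison group, so no test between conditions was possible. The labels give neither the depot nor the passage, and do not say if each library is its own mouse or culture, so every SD below may be technical. The table gives RPKM, which is reads divided by the length of the gene model and by the size of the library. Single values of a gene are RPKM averaged over the libraries, with the SD after ± (n = 3), except where another quantity is stated.

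SR proteins carry RNA recognition motifs and a tail rich in arginine and serine. They bind exons early in spliceosome assembly and usually favour inclusion of the exon. hnRNPs coat the nascent transcript through RNA recognition, KH or RGG domains, and many of them oppose exon inclusion, so the balance of both families helps to set splice site choice. Several members also act in export, stability and translation of messenger RNA. Many of these genes limit their own output by splicing in a poison exon, which carries a premature stop codon and sends the transcript to nonsense-mediated decay.

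The low values of the table step in whole reads, which placed the library totals at 28814700, 32991100 and 32027300 reads for libraries 1, 2 and 3. Each of the fixed stromal markers lay above every marker of the other cell types, which does not by itself identify the cells as MSCs. All 6 stromal genes were at an RPKM of 1 or more in every library, against 47.4% of protein-coding genes. Their summed level was 499 to 522. Most of that sum was Itgb1 at 329 ± 13.1, and Eng was the lowest at 13.9 ± 0.573. The leukocyte markers Ptprc and Cd3e were at 0.136 ± 0.00706 and 0.0141 ± 0.0244, with Cd3e listed at 0 in libraries 1 and 3. None of 2 endothelial and 3 epithelial markers reached an RPKM of 1, with summed levels of 0.629 to 0.719 and 0.352 to 0.71. Of 3 neural markers Nova1 alone did so, at 1.37 ± 0.12.

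Nearly every gene of both families was present. 30 of the 31 genes were detected, meaning an RPKM of 1 or more in all 3 libraries, against 47.4% of the 22032 protein-coding genes of the table. 26 were at 10 or more in all 3 libraries, against 16.4% of protein-coding genes. The median over the 20 hnRNP genes was 38.8 and over the 11 SR genes 17.6, beside 6.55 over the detected protein-coding genes. 13 of the 31 ranked within the first 1000 protein-coding genes by mean level. Summed over each family, hnRNP genes came to 904, 923 and 947 in libraries 1, 2 and 3 and SR genes to 228, 222 and 227. The ratio of these sums was 4.10 ± 0.109, with hnRNP genes above in each library.

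**Figure D1:**
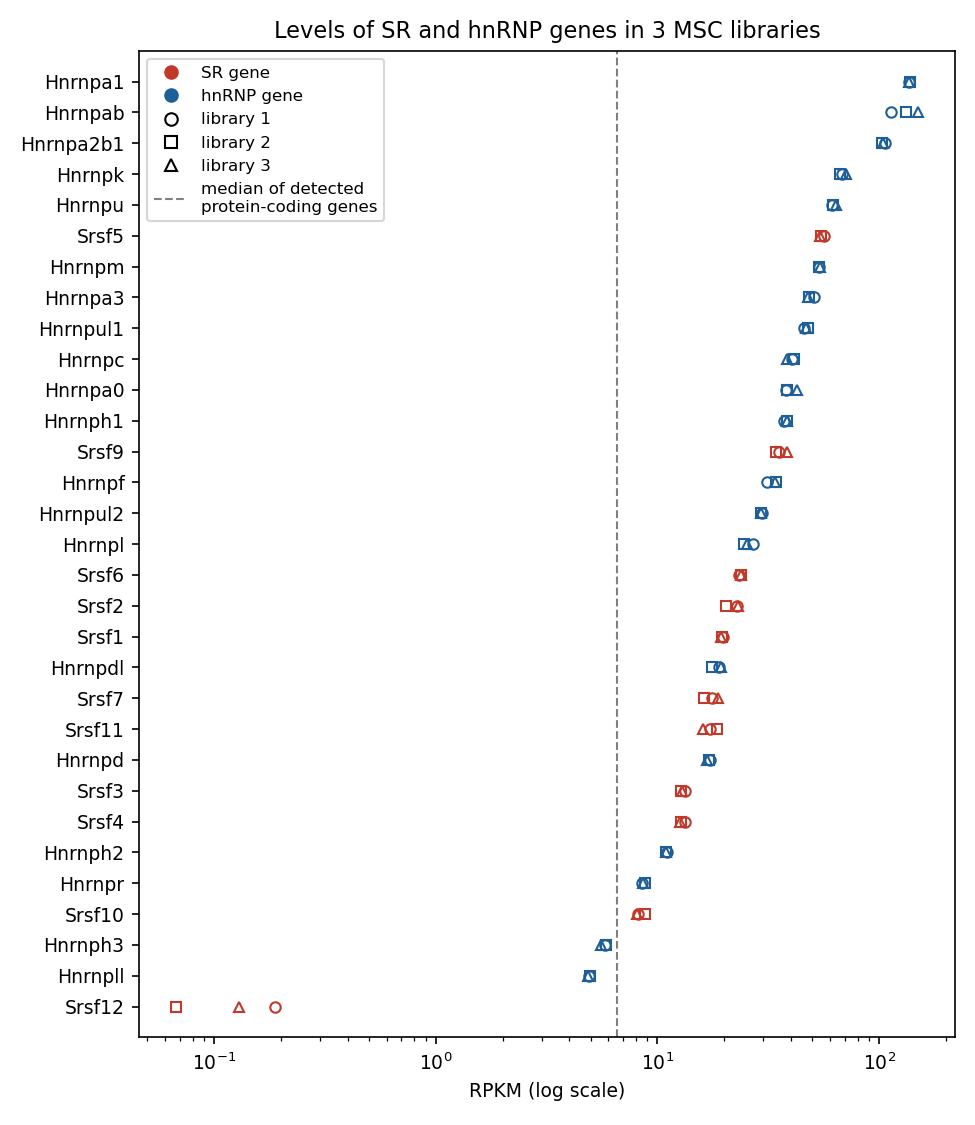
RPKM of the 31 genes in each library on a log axis, ordered by mean, with SR genes in red, hnRNP genes in blue and a marker shape for each library. Only Srsf12 lies below an RPKM of 1, and the dashed line marks the median of detected protein-coding genes at 6.55.

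The A/B group of hnRNPs, which bind through paired RNA recognition motifs, held the highest levels. Hnrnpa1 (chr15:103240432-103246692, plus strand), a splicing repressor that also shuttles to the cytoplasm, had 136, 138 and 137 in libraries 1, 2 and 3. Hnrnpab (chr11:51600100-51606847, minus strand), also known as CArG-binding factor A, had 113, 132 and 149. Hnrnpa2b1, which also directs RNA transport in neurons, had 106, 103 and 104. The values of Hnrnpa1 and Hnrnpab overlapped between libraries, so their order is not resolved, whereas both lay above Hnrnpa2b1 in each library. Per length of the longest coding transcript this turned around, with Hnrnpa2b1 at 398, Hnrnpa1 at 225 and Hnrnpab at 154. These 3 genes ranked 186, 198 and 265 among all protein-coding genes and made up 14.8% ± 0.333, 14.2% ± 1.62 and 11.3% ± 0.40 of the summed hnRNP level. Hnrnpa3 followed at 48.8 ± 1.70 and Hnrnpa0, which binds AU-rich elements, at 39.6 ± 2.51. Hnrnpd, which encodes the AU-rich element binding protein AUF1, stood at 17.0 ± 0.305, and its paralogue Hnrnpdl at 18.7 ± 0.845.

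The remaining hnRNP genes ranged from 68.5 for Hnrnpk down to 4.92 for Hnrnpll. Hnrnpk, a KH-domain protein that binds C-rich RNA, stood at 68.5 ± 2.06. Hnrnpu, the nuclear scaffold protein SAF-A, had 62.3 ± 1.30, and its relatives Hnrnpul1 and Hnrnpul2 had 46.8 ± 0.983 and 29.3 ± 0.177. Hnrnpm, which binds GU-rich RNA, had 53.7 ± 0.506. Hnrnpc, which binds uridine tracts and shields them from the core splicing machinery, had 39.9 ± 1.35. Hnrnpl, which binds CA repeats, had 25.6 ± 1.20, while Hnrnpll, known for its control of Ptprc splicing in activated lymphocytes, had 4.92 ± 0.0495. Hnrnpr stood at 8.64 ± 0.139. In the F/H group, which binds G-runs, Hnrnph1 had 38.0 ± 0.592, Hnrnpf 33.1 ± 1.61, Hnrnph2 10.9 ± 0.081 and Hnrnph3 5.74 ± 0.165.

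Among SR genes, Srsf5 (chr12:80945504-80950507, plus strand) was the highest in every library, with 56.3, 54.8 and 54.2 in libraries 1, 2 and 3. It ranked 584 among protein-coding genes and alone made up 24.4% ± 0.507 of the summed SR level. 5 hnRNP genes had a higher mean. Srsf9 followed at 36.0 ± 2.06 and Srsf6, which shares with Srsf4 and Srsf5 the layout of paired RNA recognition motifs and a long tail, at 23.7 ± 0.285. Srsf2, which binds exonic enhancers and remains mostly nuclear, had 22.1 ± 1.46, and Srsf1, the prototype of the family, 19.6 ± 0.229. Srsf3 and Srsf7, adaptors of messenger RNA export, had 13.0 ± 0.278 and 17.6 ± 1.20. Srsf11 had 17.3 ± 1.19 and Srsf4 12.9 ± 0.356. Srsf10, a repressor of splicing in its dephosphorylated form, had 8.33 ± 0.382.

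Srsf12 (chr4:33208991-33233340, plus strand) was the exception among the 31 genes. Its values were 0.188, 0.0674 and 0.129 in libraries 1, 2 and 3, which correspond to 17, 7 and 13 reads over a gene model of 3148 bases. It ranked 13233 of 22032 protein-coding genes, below the median of 0.812 over all of them. No gene of either family lay close to the detection threshold, the nearest above it being Hnrnpll, with 4.88 in its lowest library. Counting error alone would give Srsf12 a coefficient of variation of 30.5%, and the observed one was 46.9%. The processed pseudogene Hnrnpa1l2-ps, which the rule leaves out by its biotype, is listed in the table and was not counted.

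The full order of the 31 genes has 30 pairs of neighbours, and in 19 of them the ranges over the 3 libraries did not overlap. The 11 overlapping pairs were Hnrnpa1 and Hnrnpab, Srsf5 and Hnrnpm, Hnrnpa3 and Hnrnpul1, the run from Hnrnpc through Hnrnpa0 and Hnrnph1 to Srsf9, the run from Hnrnpdl through Srsf7 and Srsf11 to Hnrnpd, Srsf3 and Srsf4, and Hnrnpr and Srsf10. In 5 of these 11 the order was nevertheless the same within each of the 3 libraries, namely Hnrnpa3 above Hnrnpul1, Hnrnpa0 above Hnrnph1, Hnrnph1 above Srsf9, Hnrnpdl above Srsf7 and Hnrnpr above Srsf10. In the other 6 it differed between libraries.

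Windows at the RefSeq starts of 4 genes at the ends of these orders are shown because they carry different sets of promoter motifs. Each runs from 250 bases before to 50 bases after the start annotated by RefSeq on GRCm38.p6, the assembly that mm10 names. Hnrnpa1 lies at chr15:103240147-103240446 on the plus strand, Hnrnpab at chr11:51606832-51607131 on the minus strand, Srsf5 at chr12:80945249-80945548 on the plus strand and Srsf12 at chr4:33209022-33209321 on the plus strand. The Srsf12 window lies wholly within the GENCODE gene model, which begins at base 33208991, upstream of the RefSeq start. For Srsf12 the window therefore does not show the bases before the start of that model. Capitals mark matches on either strand to the TATA box (TATAAA), the CCAAT box, the GC box (GGGCGG), an ETS factor motif (CCGGAAG), an E-box (CACGTG) and the core of the cyclic AMP response element (TGACG), and matches that touch or overlap run together.
Hnrnpa1: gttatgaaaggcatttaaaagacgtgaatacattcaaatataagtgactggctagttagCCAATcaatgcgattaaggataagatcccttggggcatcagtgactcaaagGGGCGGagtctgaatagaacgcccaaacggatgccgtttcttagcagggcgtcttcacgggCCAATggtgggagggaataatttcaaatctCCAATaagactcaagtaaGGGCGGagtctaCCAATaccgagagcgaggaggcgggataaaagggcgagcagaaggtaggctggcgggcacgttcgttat
Hnrnpab: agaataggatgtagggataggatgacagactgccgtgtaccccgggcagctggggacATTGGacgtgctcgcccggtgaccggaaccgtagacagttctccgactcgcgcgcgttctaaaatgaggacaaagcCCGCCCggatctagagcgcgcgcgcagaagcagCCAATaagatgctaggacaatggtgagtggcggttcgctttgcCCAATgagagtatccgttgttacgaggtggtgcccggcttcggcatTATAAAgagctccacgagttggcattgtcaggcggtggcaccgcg
Srsf5: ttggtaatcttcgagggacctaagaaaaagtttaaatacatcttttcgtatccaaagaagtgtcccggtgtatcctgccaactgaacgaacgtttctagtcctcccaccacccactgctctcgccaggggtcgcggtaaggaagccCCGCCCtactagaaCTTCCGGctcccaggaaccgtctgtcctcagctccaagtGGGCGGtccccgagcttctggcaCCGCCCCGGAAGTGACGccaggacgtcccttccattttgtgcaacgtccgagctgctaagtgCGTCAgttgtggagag
Srsf12: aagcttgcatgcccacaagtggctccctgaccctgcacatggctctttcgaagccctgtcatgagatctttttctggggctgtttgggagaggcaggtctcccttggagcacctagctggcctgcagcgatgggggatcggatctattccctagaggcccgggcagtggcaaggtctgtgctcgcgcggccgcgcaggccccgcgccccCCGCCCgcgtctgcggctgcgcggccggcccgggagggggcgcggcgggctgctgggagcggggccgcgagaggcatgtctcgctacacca
In these windows Hnrnpa1 had the CCAAT box and the GC box, Hnrnpab had these and the TATA box, Srsf5 had the GC box, the ETS motif and the cyclic AMP core, and Srsf12 had the GC box alone.

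29 of the 31 genes matched the promoter table, Hnrnpll and Hnrnpul2 being the others. The GC box was in 23 of the 29 windows (79.3%), against 68.3% of 7853 detected protein-coding genes and 48.0% of all 15855 protein-coding genes with a window. The cyclic AMP core was in 17 windows (58.6%), against 34.0% of detected and 24.4% of all genes. The CCAAT box was in 16 (55.2%), against 38.8% and 38.7%. The ETS motif was in 6 (20.7%), against 19.9% and 12.1%, and the E-box in 4 (13.8%), against 10.9% and 8.13%. The TATA box was in 4 windows (13.8%), those of Hnrnpab, Hnrnpm, Srsf2 and Srsf3, against 6.38% of detected and 12.8% of all genes. The median GC content of the windows was 68.3%, against 61.7% in detected genes. These matches describe the letters of the windows and were not tested against binding.

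On the RPKM scale the genes differed little between libraries, with Hnrnpab as the exception among the detected genes. Of 30 detected genes, 1 had a highest library at least 25% above its lowest, against 11.0% of detected protein-coding genes. In 24 the fold was below 1.1, against 50.2% of detected protein-coding genes. In TPM, which scales every library to the same sum, these counts were 3 and 1, against 33.3% and 9.95% of detected protein-coding genes. The median coefficient of variation was 2.09% over hnRNP genes and 4.58% over SR genes, beside 4.95% over detected protein-coding genes. Libraries 1, 2 and 3 were the highest for 11, 9 and 11 of the 31 genes, beside 35.3%, 33.4% and 31.3% of detected protein-coding genes. In TPM library 1 was the highest for 30 of the 31, Hnrnpab being the exception, and for 89.1% of detected protein-coding genes. The sums that TPM sets equal differed between libraries mainly through rows that are not protein-coding, with the values given in the last section. Genes read deeply have less counting error, and most of these genes lie above the median level, so the background is not matched for level.

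**Figure D2:**
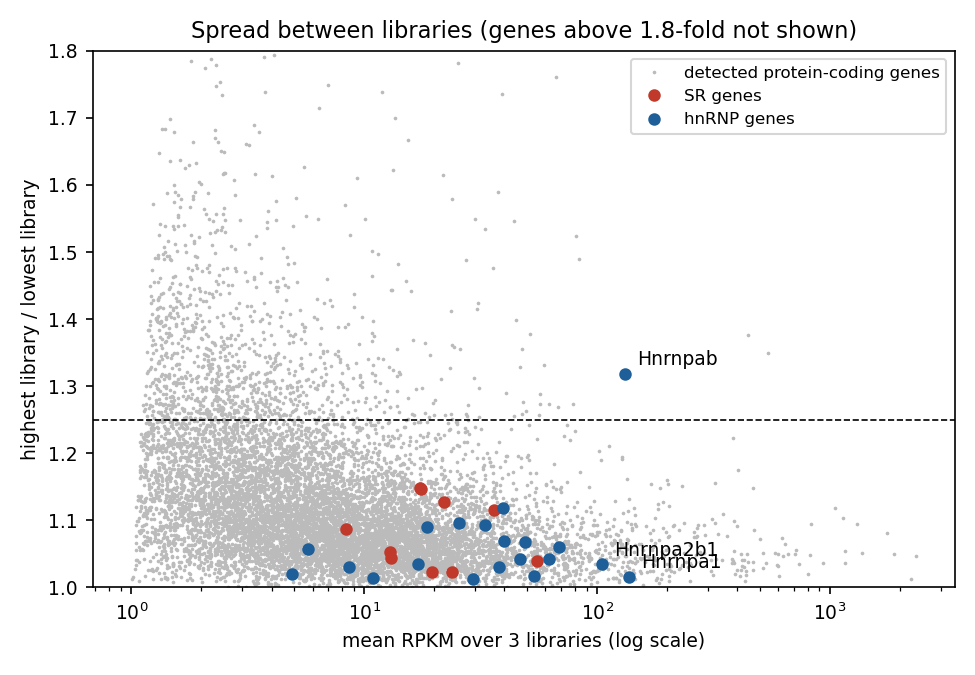
Fold between the highest and the lowest library against mean RPKM, for detected protein-coding genes in grey, SR genes in red and hnRNP genes in blue, with the dashed line at 25% above. Hnrnpab stands at 1.32-fold and the next gene, Srsf11, at 1.15-fold, while 52 grey genes lie above the axis.

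The level of Hnrnpab was lowest in library 1 at 113 and highest in library 3 at 149, a 1.32-fold difference. Counting error alone would give a coefficient of variation of 0.945%, and the observed one was 13.7%. Genes past the same fold with the same lowest and highest library made up 2.44% of detected protein-coding genes. The fold was 1.32 after centring each library on the median of detected genes and 1.13 in TPM, where the values were 44.0, 44.5 and 49.9. Phykpl, whose exons share 809 bases with Hnrnpab on the opposite strand, had 1.46, 1.49 and 1.24. These values cover its whole gene model and do not show the reads in the shared bases, which were not tested. Over all 31 genes the observed variation exceeded counting error in 24, by the reads inferred from the step size. For Hnrnpa1 both were close, 0.808% observed and 0.863% from counting. The count of 24 was not made over other genes, so it is not read as a trait of the 31. Over detected protein-coding genes the libraries differed by 3.41 to 4.10 times counting noise (median chi-square).

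Ratios between related genes differed widely between pairs. In 12 of the 25 pairs measured, one gene was at least 2-fold above the other in each library. This count and the ratios below hold for the deposited RPKM. Per length of the longest coding transcript, the log2 ratio of Hnrnpl to Hnrnpll became 1.62 and that of Hnrnph1 to Hnrnph2 2.93. On the same length that of Srsf5 to Srsf6 became 2.12 and that of Srsf4 to Srsf5 -2.79. Hnrnpab exceeded Hnrnpd by 2.71, 2.95 and 3.16 on the log2 scale in libraries 1, 2 and 3, a mean of 2.94 ± 0.22. Hnrnpl exceeded Hnrnpll by 2.38 ± 0.08 and Hnrnph1 exceeded Hnrnph2 by a mean of 1.80 ± 0.03. The log2 ratio of Hnrnph3 to Hnrnph1 was -2.73 ± 0.06. Hnrnpm exceeded its paralogue Myef2 by 2.25 ± 0.03. Srsf5 exceeded Srsf6 by 1.22 ± 0.05, and the log2 ratio of Srsf4 to Srsf5 was -2.10 ± 0.01. The largest ratio was that of Srsf10 to Srsf12, 6.14 ± 0.80, which rests on the few reads of Srsf12.

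Other pairs differed by less than 2-fold on average in the deposited RPKM, though not all did per length of the longest coding transcript. The log2 ratio of Hnrnpd to Hnrnpdl was -0.13 ± 0.08 and became -0.83 with that length. These genes lie 54.6 kb apart on chromosome 5 with 1 coding gene between them. Hnrnpa1 exceeded Hnrnpa2b1 by 0.39 ± 0.04, a ratio that became -0.83 with that length, and Hnrnph1 exceeded Hnrnpf by 0.20 ± 0.05, which became 1.13. The ratio of Srsf1 to Srsf9 was -0.88 ± 0.09 and became -1.29, and that of Srsf3 to Srsf7 was -0.43 ± 0.09 and became 0.60. Hnrnpc exceeded Raly by 0.53 ± 0.08, whereas the ratio of Hnrnpr to Syncrip, which encodes hnRNP Q, was -0.93 ± 0.02. Pcbp1 and Pcbp2, KH-domain relatives of Hnrnpk, had ratios of -0.13 ± 0.04 and -0.06 ± 0.08 to it. A second close pair on one chromosome, Hnrnpll and Srsf7, lies 137.7 kb apart on chromosome 17, at 4.92 and 17.6.

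**Figure D3:**
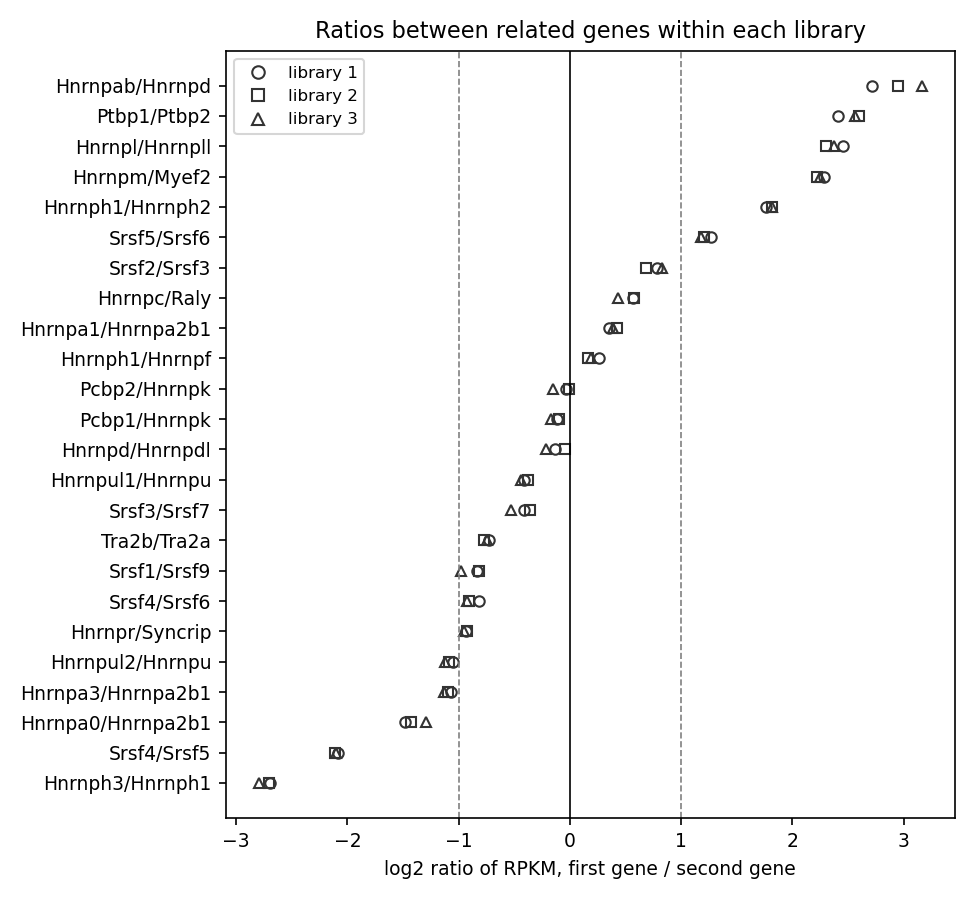
Log2 ratio of RPKM between related genes, first over second, in each library (marker shapes), with dashed lines at 2-fold and Srsf10/Srsf12 left out at 6.14. The markers of a pair lie close together compared with the distance between pairs, with the widest spread at Hnrnpab/Hnrnpd.

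Many of these genes have near-identical copies elsewhere in the genome, and the table lists reads at some of them. At 90% identity or more over at least 400 bases, 62 copies with a row in the table were found for 13 of the 31 genes, 52 of them classed as processed pseudogenes. 14 copies of 9 genes were detected. No pair among the 31 genes themselves reached that identity and length. Other genes were not searched for copies, so these counts have no background and are not read as a trait of both families. Reads that fit both a copy and its parent cannot be assigned from the deposited values, and how the authors' counting treated them is not given in the sources used here.

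Each of the 4 copies with the highest share of their parent's reads is given here, and 2 of them stood close to or above the parent in RPKM. Gm9761, a processed pseudogene on chromosome 3 that matches 492 bases of Srsf3 at 99.6% identity, had 13.4, 13.4 and 13.4 in libraries 1, 2 and 3, beside 13.3, 12.7 and 13.0 for Srsf3. Its gene model is 492 bases long and that of Srsf3 7899 bases, so its reads came to 6.44% ± 0.156 of those at Srsf3. Gm5446, a copy of Srsf10 on chromosome 13 at 98.4% identity, had 7.35, 8.09 and 9.25, beside 8.16, 8.76 and 8.06 for Srsf10, and its reads were 11.1% ± 1.53 of the parent's. Gm7964 on chromosome 7, which the table classes as protein-coding, matches 1378 bases of Hnrnpk at 99.2% identity. It had 40.6, 37.7 and 42.4, and its reads were 12.5% ± 0.416 of those at Hnrnpk. Gm10052, a copy of Hnrnpa1 on chromosome 9, had 22.0, 25.3 and 22.6, with 5.19% ± 0.338 of the parent's reads. It matches Hnrnpa1 at 100% identity over 960 bases, the whole length of its gene model. Reads within Gm10052 therefore cannot be told from those of Hnrnpa1 by sequence.

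Summed over all copies, the reads at copies came to 13.2% ± 1.49 of those at Srsf10, 12.5% ± 0.416 at Hnrnpk, 8.68% ± 0.872 at Hnrnpa3 with its 29 copies, 7.75% ± 0.174 at Srsf3 and 5.87% ± 0.187 at Hnrnpa1 with its 13 copies. For the other 8 genes with copies the mean share was below 5%. If all of these reads belonged to the parents, the levels would be 9.43 for Srsf10, 77.1 for Hnrnpk, 53.0 for Hnrnpa3, 14.0 for Srsf3 and 145 for Hnrnpa1. Whether they do was not tested.

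**Figure D4:**
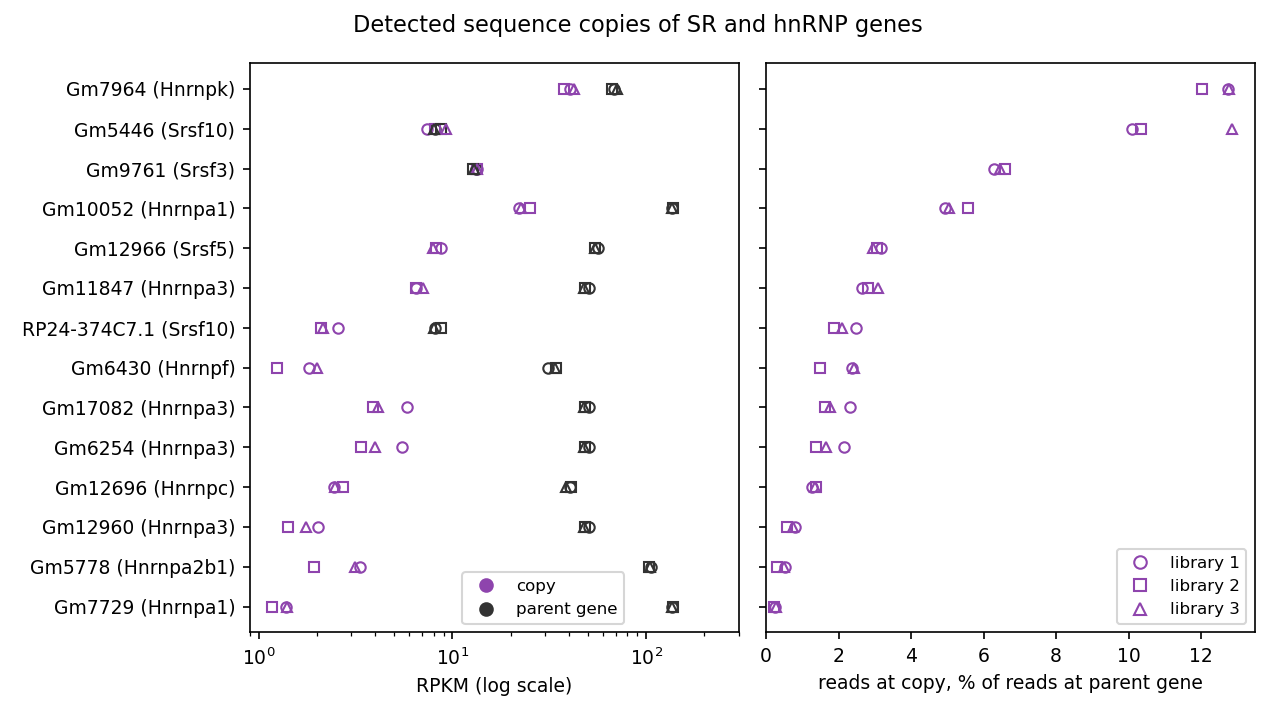
The 14 detected copies, each with its parent gene in parentheses. Left, RPKM of copy (purple) and parent (black) on a log axis, and right, inferred reads at the copy in percent of those at the parent, for each library. Gm9761 lies just above Srsf3 in each library and Gm5446 overlaps Srsf10 in RPKM, with 6.44% and 11.1% as many reads as their parents.

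The exons of 14 of the 31 genes share bases with those of another gene, for 11 of them on the opposite strand. Such overlaps were not counted for other genes, so these counts have no background and are not read as a trait of the 31. The widest overlap was that of Srsf4 with Gm12992, 1532 bases, at an RPKM of 0.207 ± 0.0447 for the latter. Hnrnpm shares 1169 bases on the same strand with March2, at 2.85 ± 0.274. Hnrnpu shares 804 bases with Cox20, at 8.27 ± 0.777. Hnrnpa3 shares 57 bases on the same strand with Gm24574, the highest of the overlapping genes in the table at 84.0 ± 13.3, above Hnrnpa3 at 48.8. Whether the counting used strand is not given in the sources used here, so reads in these stretches cannot be told apart.

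Annotated transcripts that end in nonsense-mediated decay were common in both families. 19 of the 31 genes had at least 1 transcript of that type in GENCODE M21, 9 of 11 SR genes and 10 of 20 hnRNP genes, against 29.7% of detected and 20.6% of all protein-coding genes with a model. 22 had a retained-intron transcript, against 60.7% of detected protein-coding genes. In 7 genes, 5 SR and 2 hnRNP, the premature stop lies in an exon that overlaps no exon of a coding transcript. The gene-level values sum productive and unproductive transcripts and do not measure either.

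9 such exon entries were annotated, and for Srsf4 and Srsf11, which have more than 1, the first in the list of transcripts is given. The entries of Srsf4 overlap and share the same end and stop codon, so they are not separate poison exons. The start of these poison exons is shown for the 7 genes, from the first base of the exon to the premature stop codon in capitals, because these bases are what makes the transcript unproductive. For Srsf3 the exon is chr17:29039454-29039909 on the plus strand (456 bases), and for Srsf7 it is chr17:80204622-80205081 on the minus strand (460 bases). For Srsf4 it is chr4:131884276-131884482 (207 bases) and for Srsf9 chr5:115328347-115328704 (358 bases), both on the plus strand. Srsf11 has chr3:158024123-158024231 on the minus strand (109 bases). Hnrnpl has chr7:28817335-28817404 on the plus strand (70 bases) and Hnrnpll chr17:80044940-80045022 on the minus strand (83 bases). Exons and sequences are those of GENCODE M21 on mm10.
Srsf3: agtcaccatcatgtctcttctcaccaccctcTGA
Srsf7: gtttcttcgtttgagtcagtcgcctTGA
Srsf4: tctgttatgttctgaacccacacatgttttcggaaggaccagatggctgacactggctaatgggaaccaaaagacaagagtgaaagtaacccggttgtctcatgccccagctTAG
Srsf9: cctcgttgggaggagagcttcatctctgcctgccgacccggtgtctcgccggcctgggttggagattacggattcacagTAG
Srsf11: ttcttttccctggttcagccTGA
Hnrnpl: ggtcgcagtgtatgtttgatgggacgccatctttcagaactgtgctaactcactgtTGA
Hnrnpll: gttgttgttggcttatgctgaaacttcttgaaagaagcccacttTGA
The stop codon ends 34 bases into the exon in Srsf3 and 28 bases into it in Srsf7, while 115 bases precede and include it in Srsf4.

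The length that the RPKM divides by includes such exons and retained introns, and it moves the levels of some genes more than the libraries do. With the merged length of all exons in GENCODE M21 most low values came out as whole reads, and this length ranges from 1653 bases for Srsf9 to 22199 bases for Hnrnpr. With the same reads per length of the longest coding transcript, Hnrnpa2b1 moved from 105 to 398 and passed Hnrnpa1, which moved from 137 to 225. Srsf3 moved from 13.0 to 39.1, Srsf11 from 17.3 to 47.0 and Hnrnpll from 4.92 to 18.4. Hnrnpr, whose longest coding transcript has 21452 bases, moved only from 8.64 to 8.94, and Hnrnpa0, with a single transcript, remained at 39.6. Srsf5 was the highest SR gene on both lengths, at 140.2 on the second. The second scale keeps reads from retained introns and so overstates genes that have them. It was chosen after the data had been seen.

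**Figure D5:**
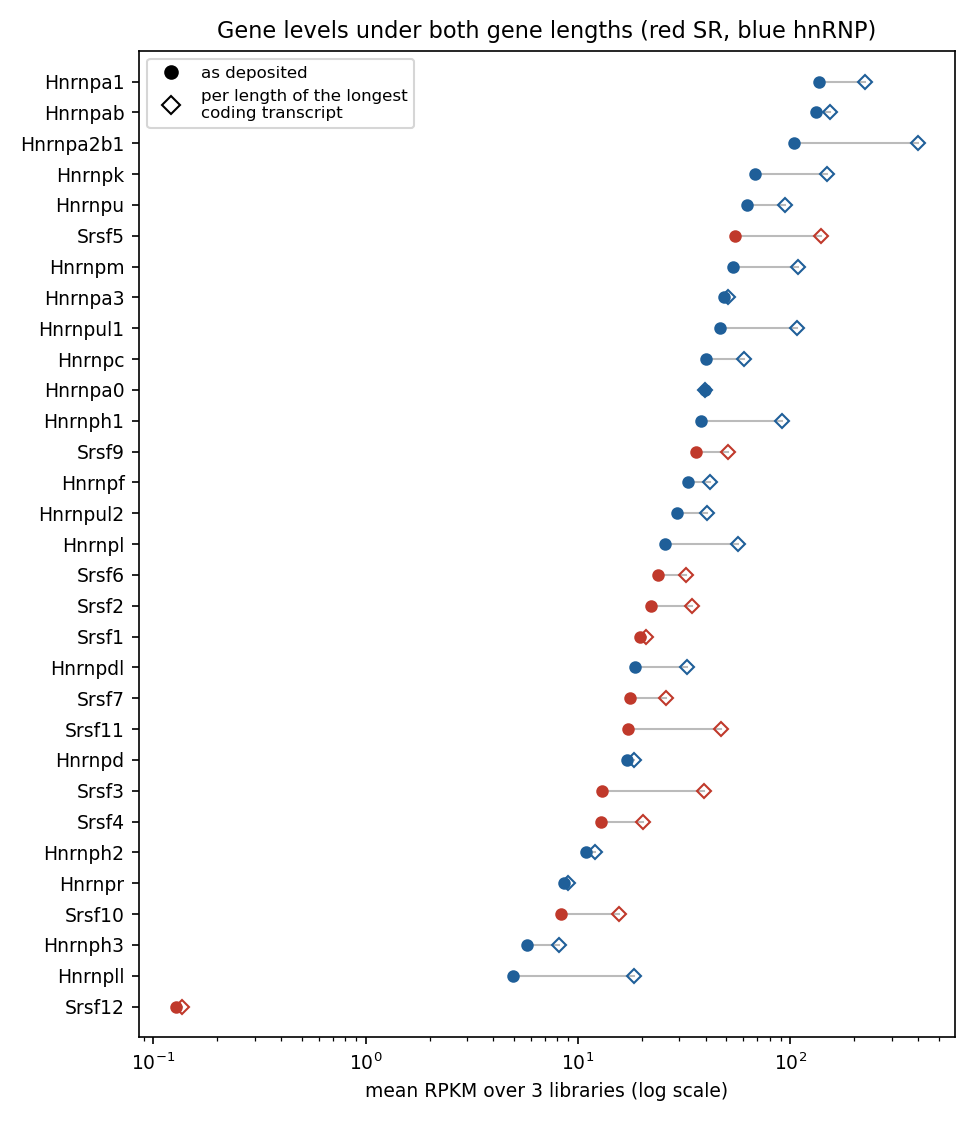
Mean RPKM over the 3 libraries as deposited (filled circles) and per length of the longest coding transcript (open diamonds) on a log axis, with SR genes in red and hnRNP genes in blue. Hnrnpa2b1 moves to the highest level at 398, and Srsf12 is the lowest gene on both scales.

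Most genes that act with both families were detected, apart from the tissue-restricted regulators. The counts below stand beside 47.4% of all protein-coding genes. Of 9 kinases that phosphorylate SR proteins 8 were detected, led by Prpf4b at 21.3 ± 0.103, Clk3 at 15.4 ± 0.218, Srpk2 at 8.95 ± 0.246 and Clk1 at 7.86 ± 0.322, and Srpk3, a muscle kinase, was the lowest at 0.0874 ± 0.067. All 3 importers were detected, Tnpo1, which carries Hnrnpa1 protein into the nucleus, at 18.6 ± 0.256, Tnpo2 at 17.1 ± 0.324, and Tnpo3, which carries SR proteins, at 7.20 ± 0.391. Of 20 SR-related genes 18 were detected, with a median of 22.0. The highest were Arglu1 at 51.4 ± 4.05, the nuclear speckle scaffold gene Srrm2 at 51.4 ± 2.19 and U2af2 at 50.6 ± 1.72. Their order differed between libraries. U2af2 encodes the subunit that recognises the polypyrimidine tract. Pnn followed at 37.0. The neural gene Srrm3 was the lowest at 0.0654. Tra2a exceeded Tra2b, the log2 ratio of Tra2b to Tra2a being -0.75 ± 0.02.

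18 of the 19 hnRNPs listed under other names were detected, with a median of 13.4, led by Pcbp2 at 65.5, Pcbp1 at 62.7, the polypyrimidine tract-binding gene Ptbp1 at 38.4 and Ewsr1 at 29.6. Ralyl was listed at 0. Ptbp1 exceeded its neuronal paralogue Ptbp2 by 2.52 ± 0.10 on the log2 scale. All 26 core genes of the snRNPs and SF3 complexes were detected with a median of 17.9, from Snrnp70 at 93.4, Sf3b2 at 72.9, Snrpd1 at 56.8 and Snrpf at 55.2 to Snrpc at 4.01. All 13 general regulators of alternative splicing were detected, Mbnl2 at 57.4, Rbfox2 at 25.1, Khdrbs1 at 18.1 and Qk at 14.0 being the highest and Tia1 at 2.91 the lowest. Of 18 regulators restricted to tissues such as brain, heart or epithelium 5 were detected, Khdrbs3 at 16.5 ± 1.17, the epithelial gene Esrp2 at 2.78, Mbnl3 at 1.48, Nova1 at 1.37 and Celf4, named after its value was seen, at 1.13, and Celf3 was listed at 0. All 10 factors of nonsense-mediated decay were detected, among them Upf3a at 43.9, Upf1, its central helicase, at 17.2, Upf2 at 12.9 and Smg5 at 9.87, with Smg9 the lowest at 3.53. Of the 101 detected genes of all these lists, 3 differed by 25% or more between libraries, beside 11.0% of detected protein-coding genes. They were Upf3a at 48.8, 44.0 and 38.8, Snrpc at 4.17, 3.47 and 4.37 and Mbnl3 at 1.64, 1.51 and 1.30.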

How the data were processed

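RNA sequencing was done on 3 libraries of a single group. Per the labels' protocols, RNA was purified with the miRNeasy kit and libraries were made from total RNA with the TruSeq V2 kit. The authors deposited 1 table of RPKM values with a column per library. Per the submitters' processing notes, mm10 was the build. Which aligner, counter and gene annotation made the values was not given in the sources used here.

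The RPKM values were used as deposited. GENCODE M21, on the same build, gave lengths for 42462 of the 43346 genes. Library totals were inferred as the total at which the commonest low value is 1 read. With them, 80.7% of 3144 genes below 10 reads lay no further than 0.05 from whole reads in each library. If both mates of a pair were counted, counting error is larger than given. Counting errors given beside values cover counting only. Over detected protein-coding genes the libraries differed by 3.41 to 4.10 times counting noise (median chi-square), more than a library deposited again would. This does not show that they came from separate cultures.

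No test was made, because there is no second group. Levels are described by mean, SD and range. The members, the gene lists and the paralogue pairs were chosen with earlier results of these data known. All 31 members are named, and of each related list the 4 highest and the lowest. Copies were found with BLAST 2.17.0 (at least 90% identity over 400 bases) among GENCODE M21 transcripts, and overlaps with bedtools 2.31.1. The inference of totals and the fold rule were tested on simulated data. The scripts ran under Python 3.11.15 with matplotlib 3.10.9, scipy 1.17.1, pandas 2.3.3 and numpy 2.4.6. Amino acid sequences were not used here. Alternatives were other scalings, thresholds, folds, pseudocounts and filters, leaving out each library, another gene length and adding the reads of copies, the last 2 chosen after seeing the data. 1 marker gene is not reported here.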

Additional observations from a re-analysis of the deposited data

How the results depend on the processing

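The count of 30 detected genes did not change in TPM, after centring on the median gene, at a threshold of 0.5 or without any 1 library, and was 26 at a threshold of 10. In TPM, in which each library is scaled to the same sum, the median detected protein-coding gene lay 0.14 (log2) above its mean in library 1 and -0.07 and -0.09 from it in libraries 2 and 3. The RPKM sum over all genes was 2569317, 2974461 and 2991479 in libraries 1, 2 and 3. Over protein-coding genes the sum was 197550, 197400 and 198490, so the sums that TPM sets equal differed mainly through rows of other biotypes. In TPM the neighbouring pairs with separate ranges fell from 19 to 7, and the genes with a highest library at least 25% above the lowest were 3 (Hnrnpl, Srsf2 and Srsf7, each highest in library 1) in place of Hnrnpab, against 33.3% of detected protein-coding genes. The count past the fold was 0 at 1.5-fold, 2 without the filter on low values (Srsf12 added) and 0 to 1 when each library was left out, being 0 without library 1 and without library 3. The medians of log2(RPKM + 1) over each family were also taken within each library. Their difference, hnRNP minus SR, averaged 1.02 ± 0.02 over the libraries. It became 0.96 in TPM, 1.06 with a pseudocount of 0.1 and 0.98 over genes at a mean RPKM of 1 or more. With the length of the longest coding transcript it became 0.73. With that length 4 log2 ratios changed sign, to -0.19 for Srsf2 to Srsf3, 0.60 for Srsf3 to Srsf7, -0.83 for Hnrnpa1 to Hnrnpa2b1 and 0.18 for Hnrnpul1 to Hnrnpu. A further 12 moved without a change of sign. The cause of these changes is the length itself, as the reads were kept. The ratio of summed levels ranged from 4.03 to 4.16 over the alternatives. No paired analysis was possible because there is a single group. Depth limits Srsf12 most among the 31 genes, with 7 to 17 reads a library.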
